A study of Mus musculus with 6 samples.

Results

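Chromatin opening was described around 8 developmental transcription factor genes in cultured mouse adipocytes. These were the T-box genes Tbx2, Tbx3, Tbx4, Tbx5, Tbx15, Tbx18 and Tbx20 and the homeobox gene Shox2. The genes were taken by name from 21911 protein-coding genes, and every ATAC-seq peak with its summit from 50 kb before to 50 kb after one of them was used, as was every peak within 1 kb of a start site. ATAC-seq marks open chromatin by the insertion of a transposase, and a peak is an interval where insertions exceed the local background of the same library. The 6 libraries were 2 each of beige, white and brown adipocytes, all differentiated for 7 days from the stromal vascular fraction of wild-type male C57BL/6J mice aged 3 to 4 weeks. Beige and white cells came from inguinal subcutaneous fat and brown cells from brown adipose tissue. The beige and brown cultures received the same induction medium, with insulin, 1 μM rosiglitazone, 1 nM T3, 5 μM dexamethasone and 0.5 mM isobutyl methylxanthine. The white cultures received 1 μM dexamethasone with insulin, the same isobutyl methylxanthine and neither T3 nor rosiglitazone. The insulin concentration is equal in all media by the labels and differs between beige and white medium by the methods of the study, so it is not given here. A difference of brown from both inguinal groups therefore goes with the depot and cannot be told apart from the donor animals, culture days or library preparation. Beige and white differ in medium, and whether they shared animals, culture days or library preparation is not given. The study describes its ATAC-seq as done with 2 biological replicates in each group but does not describe the brown libraries, and the labels do not say whether the 2 libraries of a group came from separate animals or cultures.

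T-box factors share a DNA-binding domain and act as activators or repressors that set position and tissue identity in the embryo. Tbx5 is known for the forelimb and heart, Tbx4 for the hindlimb, Tbx2 and Tbx3 as repressors in limb, heart and mammary gland, Tbx15 for skeleton and skin pattern, Tbx18 for somites, epicardium and the sinoatrial node, and Tbx20 for heart muscle. Shox2 patterns the proximal limb and the sinoatrial node. Several of them, Tbx15 and Shox2 among these, are used as markers of fat depots, because adipocyte precursors keep position-dependent expression of such genes.

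The 6 lists held 109143 to 127490 peaks, and the brown lists were on average 0.917 times as long as the inguinal ones. Peak lists carry no read counts, so the counting error per peak is unknown. The study reports fewer mapped reads for both beige than for both white libraries, and gives none for brown. Libraries were therefore compared by whether a peak was listed and by its percentile, which is the share of the library's own peaks with a lower or equal fold enrichment. An exact permutation test of 2 brown against 4 inguinal libraries allows no two-sided p below 0.133, and of 2 beige against 2 white none below 0.333, so no group test was made and counts are set beside the same share over all genes or regions. Promoters of all 8 adipocyte marker genes had a peak in every library, with 2 of 6 for macrophages, 4 to 5 of 6 for endothelial cells, 0 to 2 of 6 for skeletal muscle, 2 to 3 of 6 for mesothelial and 5 to 6 of 6 for mural cells. Of 6 progenitor genes, 5 had a promoter peak in each inguinal library, 3 in brown replicate 1 and 4 in brown replicate 2, since Dpt lacked one in both brown libraries and Pi16 in brown replicate 1, while Ly6a had none in any library. Over all protein-coding genes, 61.8% had a promoter peak in all 6 libraries, so such counts do not by themselves show which cell types were present. The cell make-up of the cultures was not measured, and fewer open cells and less opening per cell cannot be told apart.

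Peaks of the 6 lists that overlapped by at least 1 bp were joined into regions, of which 115 of 194610 had their summit in the windows of the 8 genes. The 6 sequences below are the ones on which the presence differences rest, namely the highest-ranked region of each gene that was open in all 4 inguinal and no brown library, or in both brown and no inguinal library. Each reaches 100 bases to both sides of the summit and was read from GRCm38 (mm10) on the plus strand, and capitals mark matches to any of 10 short motifs on either strand. These were T-box AGGTGTGA, homeodomain TAATTA, AP-1 TGANTCA, C/EBP TTGCNNAA, the NFI half-site TTGGCA, TEAD GGAATG, ETS CCGGAAG, the GC box GGGCGG, EBF CCCNNGGG and the E-box CAGCTG. Positions are relative to the nearest start site of the gene, with minus for upstream.
Tbx2 region at -46017 bp, chr11:85786434-85786634: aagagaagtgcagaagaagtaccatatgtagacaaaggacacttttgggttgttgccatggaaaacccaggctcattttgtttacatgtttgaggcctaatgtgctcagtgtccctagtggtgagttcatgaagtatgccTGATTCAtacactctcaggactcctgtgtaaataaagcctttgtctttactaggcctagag
Tbx4 region at -41859 bp, chr11:85844463-85844663: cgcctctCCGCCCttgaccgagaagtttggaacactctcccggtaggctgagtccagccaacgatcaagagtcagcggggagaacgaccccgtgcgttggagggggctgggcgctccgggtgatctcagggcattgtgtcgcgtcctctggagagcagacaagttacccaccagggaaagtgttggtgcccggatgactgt
Tbx5 region at -12573 bp, chr5:119821990-119822190: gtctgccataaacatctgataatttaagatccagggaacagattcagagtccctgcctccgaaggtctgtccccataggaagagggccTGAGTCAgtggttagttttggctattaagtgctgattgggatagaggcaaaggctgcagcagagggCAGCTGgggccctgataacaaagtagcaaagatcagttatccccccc
Tbx15 region at -5973 bp, chr3:99247687-99247887: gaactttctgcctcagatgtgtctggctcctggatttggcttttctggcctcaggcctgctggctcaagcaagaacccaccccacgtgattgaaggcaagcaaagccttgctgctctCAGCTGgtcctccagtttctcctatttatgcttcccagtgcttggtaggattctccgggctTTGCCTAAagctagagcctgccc
Tbx18 region at +44169 bp, chr9:87686991-87687191: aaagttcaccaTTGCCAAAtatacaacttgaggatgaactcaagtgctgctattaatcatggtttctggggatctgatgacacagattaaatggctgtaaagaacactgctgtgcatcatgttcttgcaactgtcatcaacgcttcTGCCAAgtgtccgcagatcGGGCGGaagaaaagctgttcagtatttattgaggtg
Tbx15 region at +11163 bp, chr3:99264823-99265023: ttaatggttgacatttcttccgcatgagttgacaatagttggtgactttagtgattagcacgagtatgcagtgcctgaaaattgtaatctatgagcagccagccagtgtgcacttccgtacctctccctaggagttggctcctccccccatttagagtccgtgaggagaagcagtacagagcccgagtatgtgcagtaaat
The first 5 were open in the inguinal libraries and the last in the brown ones. An AP-1 match stood in the Tbx2 and Tbx5 sequences, a C/EBP match in those of Tbx15 at -5973 bp and Tbx18, an E-box in those of Tbx5 and Tbx15 at -5973 bp, and a GC box in those of Tbx4 and Tbx18. The Tbx18 sequence also held the NFI half-site. None held the T-box, homeodomain, TEAD, ETS or EBF letters, and the brown sequence held none of the 10.

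Tbx5 (ENSMUSG00000018263.11, chr5:119832668-119885219, plus strand) was the member whose peak numbers did not overlap between the brown and the inguinal libraries. Its window held 9 and 10 peaks in the beige, 8 and 11 in the white and 4 and 3 in the brown libraries. Every inguinal library thus listed more Tbx5 peaks than either brown one, at a mean of 9.5 ± 1.29 (SD, n = 4) against 3.5 ± 0.707 (SD, n = 2) and a ratio of 0.368. Among 16889 genes with a mean of at least 5 inguinal peaks the median ratio was 0.902, and 0.0533% of them had a ratio as low as that of Tbx5. Those were Tbx5 and 8 others, 4933425L06Rik, Alox12e, Hao2, Opa1, Alox15, Ppfia2, A1bg and Ly6g. Genes entered this order by their inguinal peaks alone, which favours low ratios. The share thus describes the order and does not measure how rare such a difference is. Over all protein-coding genes, 11.6% had fewer peaks in both brown libraries than in every inguinal one, and among the 8 members this held for Tbx5 alone. A count of 1 in 8 members is near the share over all genes, so the number of members called does not set them apart. The fewer progenitor promoters listed in the brown libraries, given above, move the same way, and their part in the Tbx5 result was not tested.

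The lower brown counts were found on both sides of the Tbx5 promoter. Upstream of the gene there were 6 and 5 peaks in the beige, 5 and 7 in the white and 3 and 1 in the brown libraries, and in the gene body 3 and 5, 3 and 4, and 1 and 2. The 50 kb after the gene held no peak in any library. Of the 15 Tbx5 regions, all had a peak in some inguinal library and 5 had one in a brown library, whereas 6 were listed in 1 library only, each time an inguinal one. There were 4 inguinal and 2 brown libraries, which favours the inguinal side in such counts. Tbx5 peaks ranked low, since no Tbx5 region exceeded percentile 63.6 in any library and the highest -log10 q was 15.3. At a stricter q under 0.00001 the counts were 3 and 5 in beige, 5 and 4 in white and 3 and 0 in brown, so brown and inguinal libraries then overlapped. With lists cut to equal length the counts were 7 and 5, 6 and 10, and 4 and 3, and still did not overlap.

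The Tbx5 regions themselves differed in how widely they were shared. The intergenic region at -12573 bp, whose sequence is printed above, ranked at percentiles 23.4 and 44.4 in the beige and 24.6 and 19.0 in the white libraries. The nearest brown peak was 8684 bp away. Only the intronic region at +40865 bp was open in all 6 libraries, at 63.5 and 53.6 in beige, 63.6 and 44.9 in white and 61.3 and 8.6 in brown, where the 2 brown values stood far apart. An upstream region at -2878 bp, in an exon of the noncoding Gm43050, was listed in every library but brown replicate 2, at 18.4 to 29.9. Within the gene, the region at +1166 bp was open in the beige libraries alone (3.1 and 8.1) and the one at +10532 bp in the white ones alone (46.8 and 23.8). A peak of white replicate 2 lay only 37 bp from the +1166 bp region. The nearest beige peak to the +10532 bp region was 8973 bp away. The Tbx5 promoter peak was weak and listed in 4 libraries, at percentiles 14.1 and 24.3 in beige, 6.77 in white replicate 2 and 16.7 in brown replicate 2. Its summits lay 755 to 865 bp after the start site of the basic annotation. With the start sites of all coding transcripts, an alternative chosen after seeing the data, a promoter peak was found in all 6.

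**Figure D1:**
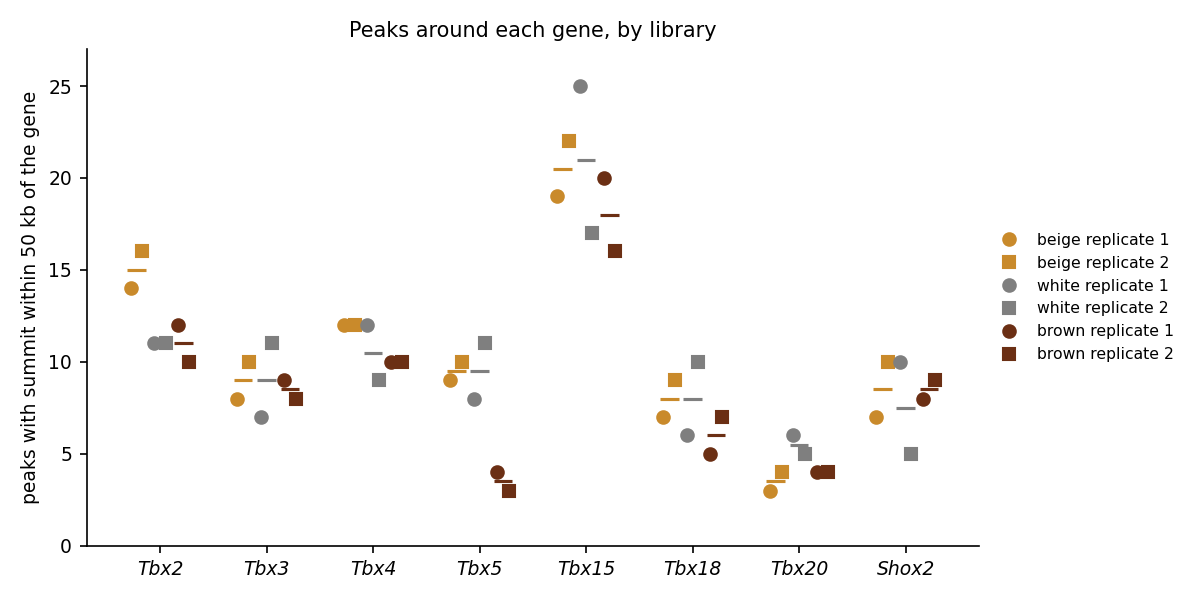
Number of peaks with their summit within 50 kb of each gene (y axis) in the 6 libraries, with circles for replicate 1, squares for replicate 2 and bars for the mean of the 2 libraries of a group. The brown libraries sit at 4 and 3 for Tbx5, under the 8 to 11 of the inguinal libraries, and overlap the inguinal libraries for each of the other genes.

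**Figure D2:**
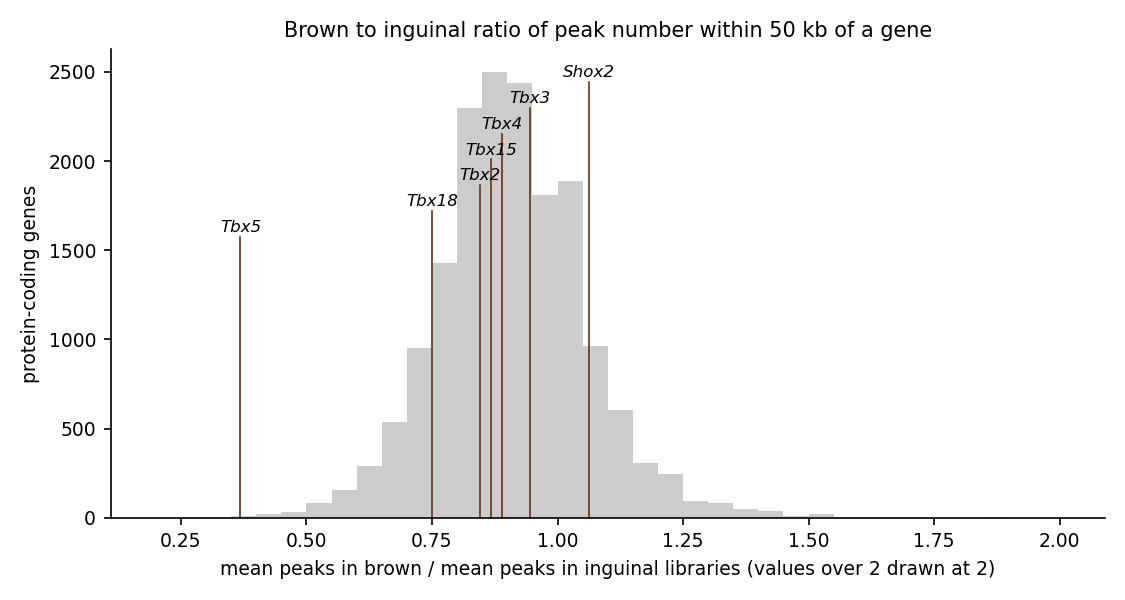
Histogram over 16889 genes of the ratio of mean peak number in brown to that in inguinal libraries (x axis), with lines for the members that had a mean of at least 5 inguinal peaks. Tbx5 stands at 0.368 in the left tail, Tbx18 at 0.75 and the others between 0.846 and 1.06.

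Tbx4 (ENSMUSG00000000094.12, chr11:85886422-85916097, plus strand), the hindlimb relative of Tbx5, had no such difference. Its window held 12 and 12 peaks in the beige, 12 and 9 in the white and 10 and 10 in the brown libraries, and brown and inguinal libraries overlapped. A promoter peak was listed in white replicate 1 alone, at percentile 30.1 and a -log10 q of 5.93, so that Tbx4 was the member with the fewest open promoters. The strong Tbx4 regions lay downstream. The region at +28857 bp ranked at 82.9 and 91.0 in beige, 89.4 and 84.5 in white and 77.8 and 73.4 in brown, so both brown values were under every inguinal one. The next region, at +45617 bp, ranked at 77.1 and 81.4, 78.2 and 87.9, and 83.6 and 84.9, with brown inside the inguinal range.

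Tbx2 (ENSMUSG00000000093.6, chr11:85832551-85841948, plus strand), a repressor gene next to Tbx4, shares part of its window with it, and regions in the shared part count for both. It had 14 and 16 peaks in the beige, 11 and 11 in the white and 12 and 10 in the brown libraries. Both beige libraries thus listed more peaks than either white one, as did 16.1% of all genes, and Tbx2 was the 1 member of which this held. Within 100 kb the counts touched, at 20 and 24 in beige and 20 and 18 in white. A region at -46017 bp, in an intron of the neighbouring gene Bcas3, ranked at 60.7 and 48.0 in beige and 30.0 and 52.9 in white. The nearest brown peak was 9260 bp away. A further inguinal region, at +12012 bp of Tbx2 and -41859 bp of Tbx4, ranked at only 4.8 to 15.9. It sits between regions open in all 6 libraries, and the nearest brown peak was 46 bp away. The intronic region at -9159 bp ranked higher in beige (82.3 and 78.8) than in white (41.6 and 56.6), with brown at 59.4 and 62.7. The Tbx2 promoter was open in every library, and its best peak ranged from percentile 11.5 in brown replicate 2 to 61.8 in white replicate 1.

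Tbx3 (ENSMUSG00000018604.18, chr5:119670669-119684724, plus strand) encodes the closest relative of the Tbx2 repressor and neighbours Tbx5. Its window held 8 and 10 peaks in beige, 7 and 11 in white and 9 and 8 in brown, so brown and inguinal libraries overlapped at this adjacent gene. Its promoter had the highest mean percentile of the 8, at 77.2 and 73.5 in beige, 88.8 and 83.8 in white and 86.5 and 84.9 in brown. Both beige values were under both white ones, and brown overlapped the inguinal range. A coding-exon region at +9504 bp ranked at 20.9 and 2.9 in beige, 7.6 and 30.9 in white and 44.8 and 44.0 in brown, so both brown values were over every inguinal one. The strongest Tbx3 region was intergenic, at +42040 bp, with 96.4 and 96.9 in beige, 84.9 and 96.0 in white and 86.0 and 70.4 in brown.

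Tbx15 (ENSMUSG00000027868.11, chr3:99240381-99354259, plus strand), a depot marker gene and the longest of the 8, had the most peaks. There were 19 and 22 in beige, 25 and 17 in white and 20 and 16 in brown, and the groups overlapped. It held regions of several kinds. The one open in both brown and no inguinal library, intronic at +11163 bp, ranked at 11.7 and 14.1, with -log10 q of 4.83 and 4.71, so both peaks were faint. The nearest inguinal peak was 881 bp away. The intronic region at -5973 bp was open in the 4 inguinal libraries alone, at 2.6 to 15.1. It was faint too, and the nearest brown peak was 683 bp away. Less than 1 kb further upstream, at -6945 bp, a region open in all 6 libraries ranked at 44.4 and 43.8 in beige, 58.0 and 15.0 in white and 68.0 and 70.9 in brown, over every inguinal value. The region at -5 bp, on the start site, did likewise, with 48.9 and 47.8, 35.2 and 14.7, and 54.7 and 62.7. At -50157 bp, in an intron of Wars2, the order was the opposite, with 44.4 and 42.0, 53.7 and 56.8, and 37.3 and 15.4. The broad region at -12752 bp, near an upstream start site of the full annotation, ranked at 71.9 to 85.4 in all 6 libraries. Beige alone opened +38334 bp (19.6 and 8.5) and white alone +47303 bp (29.1 and 23.7), both in introns. A white peak lay 428 bp from the first and a beige peak 224 bp from the second.

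Tbx18 (ENSMUSG00000032419.8, chr9:87702800-87731260, minus strand) had a broad and even promoter. Its peak was 1942 to 2053 bp wide with 6 to 7 summits, wider than 99.95% or more of the promoter peaks in each library. It ranked at 71.2 and 66.2 in beige, 79.9 and 74.1 in white and 75.8 and 76.3 in brown. Brown lay inside the inguinal range there, whereas the distal regions ranked lower in brown. The intronic region at +22906 bp had 92.4 and 89.3 in beige, 79.6 and 93.4 in white and 69.1 and 78.4 in brown. At -7952 bp, in an exon of the noncoding Gm37374, the percentiles were 70.3 and 59.3, 69.0 and 68.8, and 51.1 and 33.7. The intergenic region at +44169 bp, printed above, had 19.6 and 45.8 in beige and 36.5 and 79.3 in white, and the nearest brown peak was 18145 bp away. Peak numbers around Tbx18 were 7 and 9, 6 and 10, and 5 and 7, so brown and inguinal overlapped.

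Tbx20 (ENSMUSG00000031965.15, chr9:24718138-24774303, minus strand), the cardiac member, had the fewest peaks. There were 3 and 4 in beige, 6 and 5 in white and 4 and 4 in brown. White listed more than beige, which held for 10.3% of all genes and for this 1 member. The groups no longer separated with lists of equal length (3 and 2 in beige, 5 and 3 in white), at q under 0.00001 (2 in each) or within 10 kb of the gene (2 and 3, 4 and 3). The promoter of this heart gene was open in all 6 libraries, at 33.3 and 18.0 in beige, 66.4 and 39.7 in white and 62.5 and 59.1 in brown. Shox2 (ENSMUSG00000027833.16, chr3:66971727-66981771, minus strand) had 7 and 10, 10 and 5, and 8 and 9 peaks, with overlap of all groups. Its promoter ranked at 42.3 and 30.4 in beige, 55.2 and 38.6 in white and 53.2 and 48.5 in brown. One promoter region, at -152 bp, ranked higher in both brown libraries (53.2 and 44.0) than in the inguinal ones (42.3, 30.4, 16.9 and 21.6), but it also lies within 1 kb of a start site of the neighbour Rsrc1, so the genes cannot be told apart. A further Rsrc1 promoter region, at -4144 bp, had 71.5 and 67.1, 78.1 and 80.7, and 82.7 and 81.3. An intergenic region at +55671 bp was the 1 region open in both beige and both brown and no white library, at 26.5 and 60.6 in beige and 19.7 and 29.3 in brown, and the nearest white peak was 21255 bp away.

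**Figure D3:**
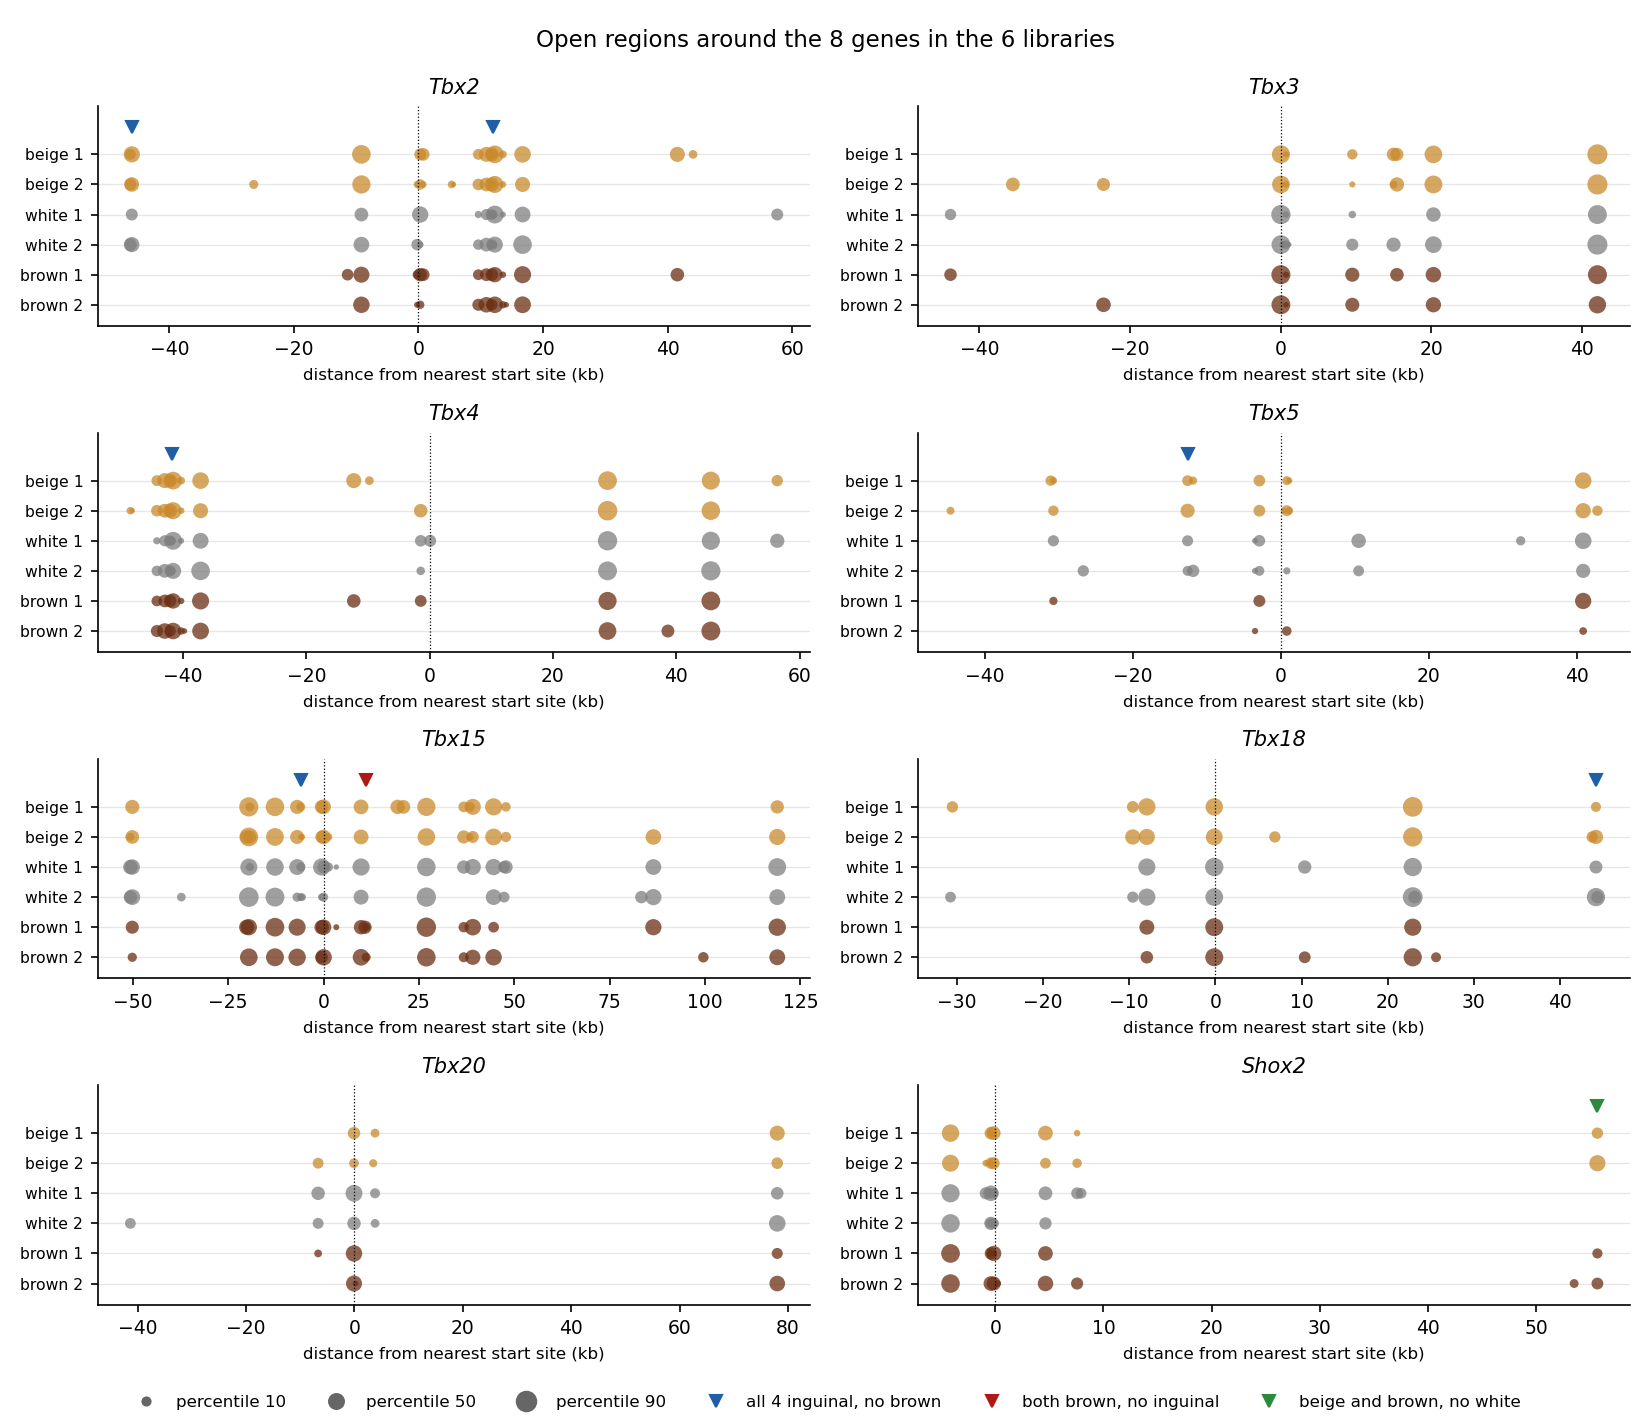
Position of every region relative to the nearest start site (x axis, kb) in each library with a peak there (rows), with larger points for a higher value of the percentile. Peaks of a library that were joined into the same region share a point. Triangles mark the regions open in all 4 inguinal and no brown, both brown and no inguinal, or beige and brown and no white libraries. The Tbx5 panel shows fewer points in each brown row than in any inguinal row.

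**Figure D4:**
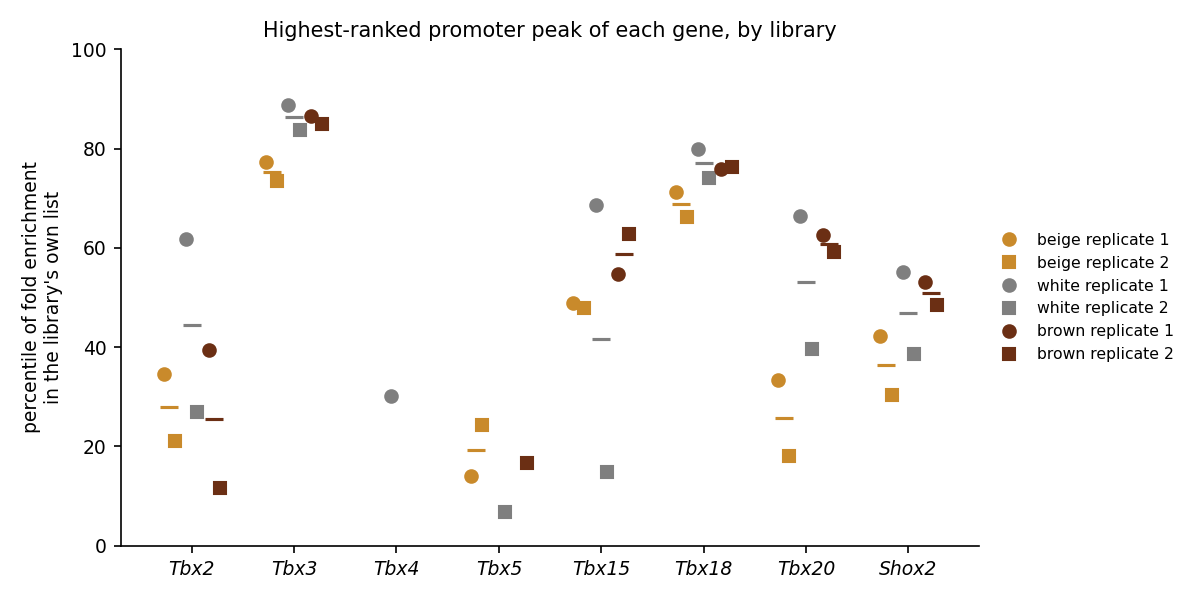
Percentile of the highest-ranked promoter peak of each gene (y axis) in the 6 libraries, with circles for replicate 1, squares for replicate 2 and bars for group means. Tbx3 and Tbx18 sit at 66.2 to 88.8 in all libraries, and Tbx4 shows the 1 peak of white replicate 1 at 30.1.

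Counted over the members, 6 of 8 promoters had a peak in all 6 libraries, against 61.8% of all genes, and none of the 6 separated brown from inguinal libraries by the rank of its best peak. No member had more peaks in both brown than in every inguinal library, against 1.3% of genes. Of the 115 regions, 34 (29.6%) were open in all 6 libraries, near the 30.2% of all regions. Regions open in the 4 inguinal and no brown library numbered 5 (4.35%), against 1.16% of all regions, and lay around Tbx2, Tbx4, Tbx5, Tbx15 and Tbx18. This excess was not tested. The windows of Tbx2 and Tbx4 overlap, and the Tbx4 region is 1 of the 2 in the Tbx2 window. A brown peak lay 46 bp from it. The reverse class, both brown and no inguinal, held 1 (0.870%) against 0.877%. Beige and brown without white held 1 (0.870%) against 1.25%. The 2 beige libraries alone opened 2 regions (1.74%) against 1.94%, and the 2 white alone 2 (1.74%) against 1.23%. A further 36 regions (31.3%) were listed in a single library, compared with 37.2% of all regions. By place, 45 regions were intronic, 33 intergenic, 22 at promoters, 9 in coding and 5 in noncoding exons and 1 in a UTR.

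Sharing of regions between libraries was compared by depot and by medium. Beige and brown, which had the same medium, shared 47.7% to 57.1% of the member regions open in either library (mean 53.2% over 4 pairs), and beige and white, which had the same depot, 56.0% to 61.7% (mean 58.9%). The 2 ranges overlapped. Over the whole genome the means were 59.3% and 57.8%, the other way round. White and brown shared 52.0% around the members and 54.5% over the genome. Replicates shared 65.5% in beige, 60.5% in white and 59.7% in brown around the members. The pairs reuse the same 6 libraries, so these shares are a description.

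Among the 34 regions open in every library, 5 (14.7%) ranked lower in both brown than in every inguinal library, against 11.1% of all such regions. They were Tbx3 at +698 bp, Tbx4 at +28857 bp, Tbx15 at -50157 bp and Tbx18 at +22906 and -7952 bp. The mean percentile of the Tbx4 region was 87.0 ± 3.87 (SD, n = 4) in inguinal and 75.6 ± 3.05 (SD, n = 2) in brown libraries, and that of Tbx18 at +22906 bp 88.6 ± 6.30 and 73.7 ± 6.58. Another 5 (14.7%) ranked higher, against 10.5%, namely Tbx3 at +9504 bp, Tbx15 at -6945 and -5 bp and Shox2 at -152 and -4144 bp. At Tbx15 -6945 bp the means were 40.3 ± 18.1 and 69.4 ± 2.02. With lists of equal length, 2 regions ranked lower and 6 higher, and with ranks by -log10 q instead of fold enrichment 7 ranked lower and 2 higher, so neither the number nor the balance of the 2 directions was stable. The median difference of brown from inguinal was 1.36 percentile points, compared with -0.0335 over all such regions. Beige ranked over white in 9 of 34 (26.5%, against 25.8%) and white over beige in 9 (26.5%, against 22.1%). The median of the mean percentiles was 55.6, under the 71.6 of all regions open in every library.

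**Figure D5:**
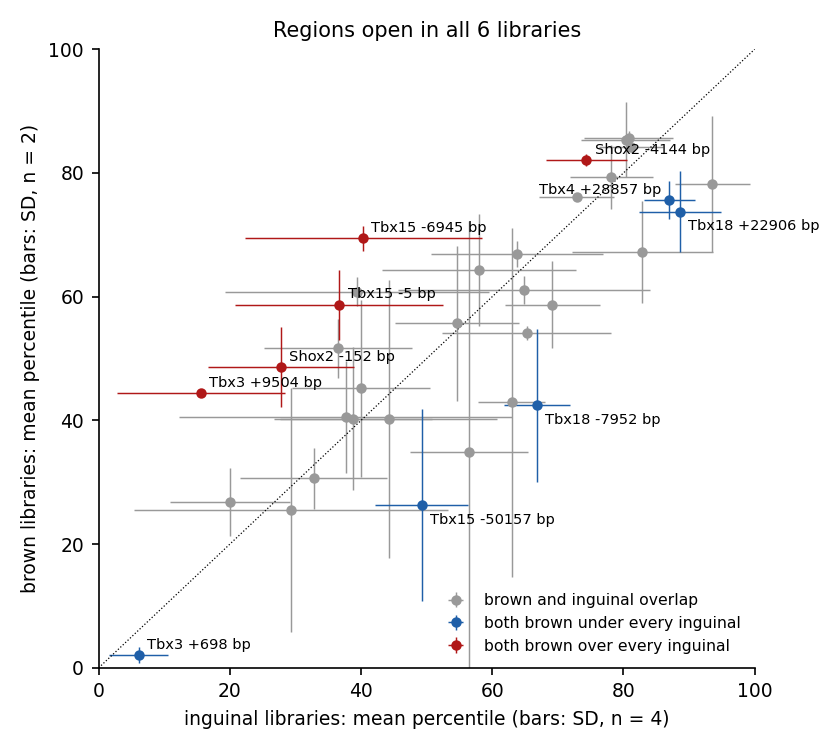
Mean percentile in the 2 brown (y axis) against the 4 inguinal libraries (x axis) of the 34 regions open in all 6, with SD bars and the line of equality. The 5 regions in red lie over and the 5 in blue under every inguinal value, for example Tbx15 at -6945 bp with 69.4 in brown and 40.3 in inguinal libraries.

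The 115 regions were also described by their sequence. The T-box letters occurred in 1 (0.870%, against 0.585% of all regions), in a Wars2 intron at -19327 bp of Tbx15, and the homeodomain letters in 1 (0.870% against 2.69%). GC boxes were found in 25 (21.7% against 10.6%) and E-boxes in 22 (19.1% against 15.4%). AP-1 letters were found in 14 (12.2% against 21.2%), C/EBP in 15 (13.0% against 12.6%), NFI half-sites in 13 (11.3% against 15.5%), TEAD in 12 (10.4% against 14.1%), EBF in 11 (9.57% against 9.19%) and ETS in 1 (0.870% against 2.35%). The same stretches around the summits of the 115 regions were also richer in GC, with a median of 55.2% against 50.2% over all regions. The part of GC in the GC box and AP-1 shares was not tested.

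Other genes of the same families and pathways were set beside the members. Of 10 other T-box genes, 3 (Tbr1, Eomes and Mga) had a promoter peak in all 6 libraries and 3 (Tbx6, Tbx10 and Tbx19) in none. Tbx6 alone of these had fewer brown peaks, at 24 and 20 in beige, 23 and 20 in white and 19 and 18 in brown, a smaller step than at Tbx5. Of 15 limb and patterning partners, 11 had a promoter peak in all 6 libraries, 4 had fewer peaks in brown and 1 had more. Over all genes these shares were 61.8%, 11.6% and 1.3%. Fgf10, a limb growth factor gene that Tbx4 and Tbx5 are known to activate, had 14 and 17 peaks in beige, 15 and 18 in white and 8 and 8 in brown, and kept its promoter peak in every library. Isl1 (2 and 6, 3 and 2, 1 and 1), Bmp4 (3 and 4, 5 and 4, 2 and 2) and Prrx2 (32 and 35, 35 and 33, 25 and 30) were the others with fewer. The inguinal means of Isl1 (3.25) and Bmp4 (4) were under the minimum of 5 used for ratios. Sall4 had more (8 and 8, 8 and 6, 10 and 9), but its promoter peak was listed in the 4 inguinal libraries and in neither brown one.

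Genes were finally ordered by the number of regions open in the inguinal libraries alone minus those open in the brown ones alone. Tbx2 reached 2, a value that 1.93% of genes reached or passed, Tbx4, Tbx5 and Tbx18 reached 1 (13.8%), and the other 4 members were at 0. On the inguinal side the 5 genes at the end of this order were Csf1, at 5, and Atxn10, Cenpp, Farsb and Pcdh9, at 4. On the brown side they were Cadps, Col4a1, Csmd1, Zic1 and Zic4, at -4, and the adjacent Zic1 and Zic4 counted the same regions, with 6 and 8 peaks in beige, 5 and 7 in white and 14 and 13 in brown. No member came near this brown side, and Tbx15 was the 1 member with a brown region.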

How the data were processed

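The authors deposited 1 peak list per library, in which reads aligned to mm10 with BWA had been handled with SAMtools and peaks called per library with MACS2 at q under 0.05. In the deposited lists the fold enrichment is a ratio, that of read pileup at a summit to background nearby in the one library, and the authors' -log10 p-value and -log10 q-value belong to that summit. The deposited score is a rounded form of the same q-value and was not used. The methods of the study name the inguinal cultures, and the brown libraries are known here from the labels.

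Each interval was counted once, at its summit of highest -log10 q, and was used for presence and for its percentile of fold enrichment within its own list. Values were not compared between libraries as amounts of signal. Overlapping peaks were joined into regions at 1 bp. Promoters were 1 kb to both sides of start sites of protein-coding transcripts in the basic set of GENCODE M21, whose build is that of the lists. Motifs were sought within 100 bp to both sides of each region's summit. A region or gene was called different where the values of the 2 groups did not overlap, with no test. Standard deviations are over libraries. The lists hold no reads per peak, and the study gives sequencing depth for the beige and white libraries but not for the brown ones. No counting interval was therefore given. All 8 members were described, with their promoter regions and, per class of presence, up to 3 regions of highest mean percentile. Regions that ranked apart between groups or stood out in a window were named after their values were seen. Genes of like pattern were the 5 at either end of the order by inguinal-only minus brown-only regions. The members and gene lists were chosen with earlier results of these data known. The scripts were tested on simulated data. Python 3.11.15, numpy 2.4.6, pandas 2.3.3 and matplotlib 3.10.9 were used, and 17 alternative settings were tried.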

Additional observations from a re-analysis of the deposited data

How the results depend on the processing

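Most values, 81 of 99, were equal to the reported one or within 1.5 times of it over the alternatives. Members with more brown peaks stayed at 0 in every setting, and each such 0 is among the values that kept. All values that moved further belonged to counts that set brown against inguinal libraries. No paired analysis was possible because the results are counts of listed peaks and ranks, none of which comes from a test. At a q under 0.00001 the regions open in both brown and no inguinal library fell from 1 to 0, those open in all 4 inguinal and no brown library from 5 to 3, members with fewer brown peaks from 1 to 0 and shared regions ranked lower in brown from 5 to 3. Fewer peaks pass this threshold by construction. Where a library was open at that q and closed only without any peak, the first 2 classes were again 0 and 3. A window of 10 kb left 2 inguinal regions. Lists of equal length gave 2 regions ranked lower and 6 higher, and ranks by -log10 q gave 7 ranked lower and 2 higher; the cause was not tested. Leaving out 1 library in turn gave 1 to 8 brown regions, 5 to 9 inguinal regions, 1 to 3 members with fewer brown peaks, 5 to 10 regions ranked lower and 5 to 8 ranked higher. The single brown region became 8 without brown replicate 1 and 4 without brown replicate 2, and inguinal regions became 9 without white replicate 1. Members with fewer brown peaks became 3 without brown replicate 1 and 2 without brown replicate 2 or white replicate 2. Regions ranked lower became 10 without brown replicate 2 and 8 without white replicate 1, and those ranked higher 8 without white replicate 1. With fewer libraries these conditions are easier to meet by construction. Regions open in all 6 libraries ranged from 28 at q under 0.00001 to 48 with regions rebuilt from single summits. The rebuilt regions are a different unit, with 260420 over the genome in place of 194610. Leaving out 1 library gave 33 to 37, where a region had to be open in the remaining libraries only. The lists give no depth, so the absence of a peak is not the absence of opening.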
